A study of Mus musculus with 6 samples.

Results

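The genes described here carry glucose into the cell, split it to pyruvate, convert pyruvate to lactate, export the lactate, or admit pyruvate to the mitochondrion and the pyruvate dehydrogenase complex. They were taken by name from the deposited table as a list of 37 genes, and each name was found once among the 20036 genes of that table. The measurements are RNA sequencing counts from macrophages made of THP-1, a human monocytic leukaemia line whose cells turn adherent and macrophage-like under the phorbol ester PMA. The design text gives PMA at 100 ng/ml for 48 h in the lower well of a Transwell plate, then tumour cells in the upper well with melittin, a membrane-disrupting peptide of bee venom, at 3 µg/ml for 48 h. The libraries form a melittin group (3 libraries) and a control group (3 libraries, titled NC). The PMA step is recorded for both groups, and a melittin dose and a co-culture time for the melittin group alone. The design text does not say what else the control wells went through. Melittin, the presence of tumour cells and the added culture time therefore cannot be told apart. Both groups come from 1 cell line, and nothing in the labels says that the libraries are separate cultures, and each p-value therefore reflects library-to-library spread alone, possibly technical.

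Glycolysis runs through transporters of the SLC2A (GLUT) family, hexokinases, phosphofructokinase and the enzymes of the 3-carbon stage to pyruvate kinase. Lactate dehydrogenase reduces pyruvate to lactate, which leaves the cell through monocarboxylate transporters, while the mitochondrial pyruvate carrier feeds the pyruvate dehydrogenase complex, held inactive by its kinases and released by its phosphatases. In macrophages this route is known for its rise during inflammatory activation, and several of its genes are known targets of the hypoxia factor HIF-1. Transcript levels do not measure flux, and these bulk samples cannot separate fewer expressing cells from less RNA per cell.

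The libraries held 16192032 to 19521897 counts with melittin and 16001423 to 19597781 in controls. All 20036 gene identifiers were human although the organism label reads mouse. Values are given as CPM, a count over its library total on the usual per-1000000 scale, with TMM factors, a trimmed-mean correction of library size. Of 14 macrophage markers 13 had at least 60 counts over the 6 libraries, and CD68 had 1. Their summed level, here without TMM factors, was 3000.5 to 3041 CPM with melittin and 3807 to 3834 in controls, with CD163 and CSF1R among those that fell and ITGAX and ITGAM among those that rose. Of 15 prostate tumour cell markers, 6 were at 0 in every library, among them EPCAM, KRT18 and TMPRSS2, and KLK3 had 2 counts in all. The summed level of that list was 101 to 113 CPM with melittin and 98.1 to 103 CPM in controls. The part of these markers in the results below was not tested.

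Melittin libraries showed a rearranged set of glycolytic transcripts, with no common direction. ALDOC, ENO2, PDP1, PFKL, SLC2A3 and SLC16A3 rose and PKM and DLAT fell past 1.5-fold when tested against that size. ALDOA and SLC2A6 had estimates of 1.81-fold higher and 1.53-fold lower but did not pass that test. GAPDH rose and LDHA, HK2, HK1, PFKFB3 and PFKFB4 fell by smaller amounts. SLC2A1, the main glucose transporter transcript here, had a log2 fold change of 0.02 (SE 0.0259). Of the 37 genes, 34 passed the filter on low counts and were tested. Of these, 12 rose and 13 fell at an adjusted p of 0.05 (edgeR quasi-likelihood test, two-sided, Benjamini-Hochberg over 12029 genes), and 9 did not pass. The same test called 76.4% of all genes tested, 38.1% as higher and 38.3% as lower, so the 25 members called are close to the background. Tested against a fold change of 1.5 (edgeR glmTreat), 6 members were higher and 2 lower, where 29.1% of all genes passed, 14.6% as higher and 14.4% as lower. Of these 8, DLAT lost that call without melittin replicate 2, melittin replicate 3, control replicate 1 or control replicate 3, SLC2A3 without control replicate 1 or 2, and SLC16A3 without control replicate 3. With no filter on low counts SLC2A3 also lost it, leaving 5 members higher and 2 lower. With the trend of the fold change on gene length removed, 6 members were higher and 3 lower past 1.5-fold, since DLAT (log2 fold change −0.61) lost that call and MPC1 (−0.73) and SLC2A6 (−0.71) gained it. The median log2 fold change over the 34 members was 0.01, against −0.01 over all genes tested, and the median size without sign was 0.33 against 0.47. In 26 members the 3 melittin values and the 3 control values did not overlap, and this held for 77.4% of all genes tested.

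**Figure D1:**
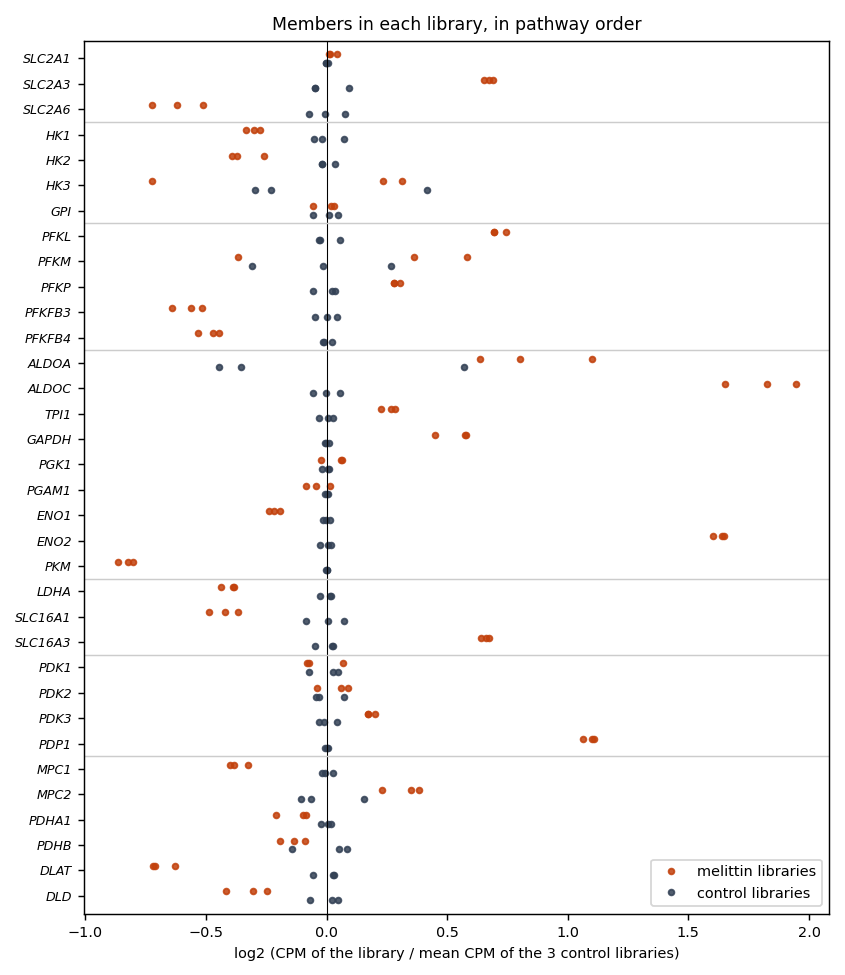
Each of the 34 tested members (rows, in pathway order with lines between roles) in each library, as log2 of its CPM over the mean of the control libraries. Melittin points (orange) lie to the right for ALDOC, ENO2 and PDP1 and to the left for PKM and DLAT, while SLC2A1, GPI, PGK1 and PGAM1 stay near 0 in both groups.

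The split between higher and lower depends on how libraries are scaled. CXCL8 alone took 5.58% to 5.71% of all counts in melittin libraries, while the top gene of the control libraries took 1.77%. With library totals alone in place of TMM, all genes tested had a median log2 fold change of −0.24, 78.2% of genes were called, 26.3% as higher and 51.9% as lower, and 7 members rose and 19 fell, with a member median of −0.22. Past 1.5-fold that scaling left 3 members higher, ALDOC, ENO2 and PDP1, and 6 lower, PKM, DLAT, SLC2A6, PFKFB3, PFKFB4 and LDHA, where 32.4% of all genes passed, 9.39% as higher and 23% as lower. All 13 members that fell and 7 of the 12 that rose were called the same way under both scalings. Library totals alone moved each tested member down, so the falls were bound to keep their sign. The 5 other risers, PFKP, TPI1, ALDOA, PDK3 and MPC2, lost their call with library totals alone. SLC2A1, GPI, PGK1, PGAM1, PDK1 and PDHB, uncalled under TMM, were called lower with library totals alone, with log2 fold changes of −0.38 to −0.20, around the shift of all genes. With the trend of the fold change on gene length removed, SLC2A1, GPI, PGK1 and PDK1 were instead called higher, by at most 0.19 on the log2 scale, and PGAM1 lower.

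**Figure D2:**
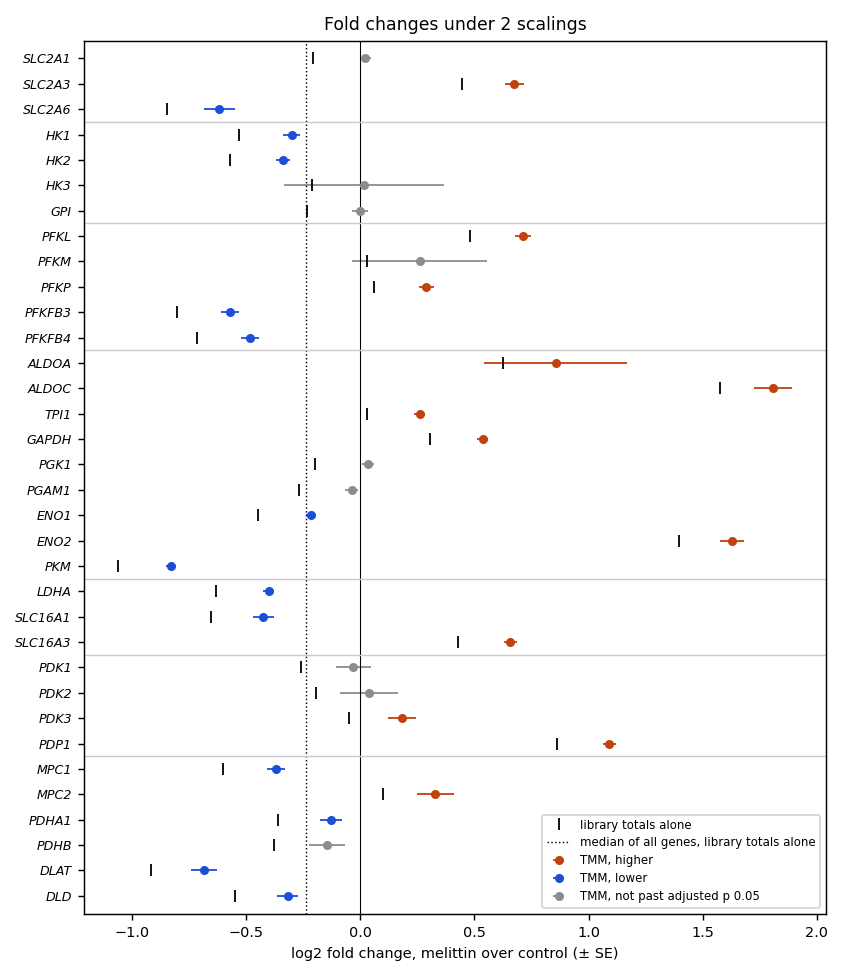
Log2 fold change of each tested member, melittin over control, with TMM scaling (points, bars are SE, coloured by call) and with library totals alone (ticks). The dotted line at −0.24 is the median of all genes with library totals alone, and each tick lies to the left of its point by about that shift.

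**Figure D3:**
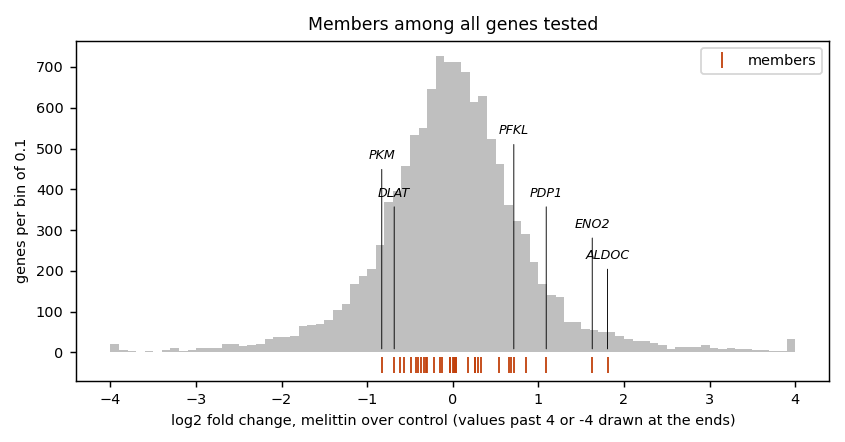
Distribution of the log2 fold change, melittin over control, over 12029 genes (grey bars, genes per bin of 0.1) with the 34 tested members as ticks below. Members run from PKM at −0.83 to ALDOC at 1.81, inside the range of the other genes.

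Among the glucose transporters, levels per length placed SLC2A1 first in both groups, at 43.1 ± 0.515 CPM per kilobase with melittin and 42.4 ± 0.105 in controls (SD, n = 3). SLC2A1, which encodes the widespread transporter GLUT1 (chromosome 1, 42925353 to 42958893, minus strand, GRCh38), had 283, 283 and 289 CPM in melittin libraries and 280.3, 280.0 and 281 CPM in control libraries. The groups lay within a few CPM of each other, and the difference did not pass (edgeR adjusted p = 0.436). SLC2A3, which encodes GLUT3, a transporter of high glucose affinity, had 117, 114 and 116 CPM with melittin, against 70.4, 70.3 and 77.5 CPM in controls. Every melittin library was above every control for SLC2A3, a log2 fold change of 0.67 (SE 0.0411, edgeR adjusted p = 2.18e-14). Its near-identical neighbour SLC2A14 had 0 counts in every library, and how reads common to the pair were assigned is not given in the sources used here. SLC2A6, which encodes GLUT6, a transporter of intracellular membranes, had 28.5, 24.6 and 26.5 CPM with melittin and 40.5, 38.6 and 42.9 CPM in controls. It thus fell, by 0.62 on the log2 scale, and did not pass against 1.5-fold (edgeR adjusted p = 0.354). Per length, SLC2A3 made up 27.4 ± 0.18% of the FPKM of these transporters with melittin and 18.2 ± 0.67% in controls, and SLC2A6 10.8 ± 0.69% and 17.5 ± 0.57% (SD, n = 3). The summed level of the family was 69.7 ± 0.87 CPM per kilobase with melittin and 65.9 ± 1.36 in controls.

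Of the hexokinases, which trap glucose in the cell as glucose 6-phosphate, HK2 and HK1 fell with melittin. HK2, the inducible isozyme bound to mitochondria, had 233, 216 and 213 CPM with melittin and 276, 276 and 286 CPM in controls. HK1, the constitutive isozyme, had 118, 120.0 and 115 CPM with melittin and 140.1, 143 and 153 CPM in controls. Neither gene had overlapping groups, and the falls were close in size, with log2 fold changes of −0.34 (SE 0.0314) for HK2 and −0.30 (SE 0.0356) for HK1. HK2 was 68.1 ± 0.99% of hexokinase FPKM with melittin and 68.8 ± 0.43% in controls, and the groups overlapped. HK3, the myeloid isozyme, had 19, 21 and 9 counts with melittin and 27, 18 and 14 in controls, a difference too small to detect at this depth (edgeR adjusted p = 0.967). GPI, the isomerase that makes fructose 6-phosphate, averaged 135 ± 4.3 CPM with melittin and 135 ± 4.78 CPM in controls.

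At the phosphofructokinase step, the committed step of glycolysis, PFKL and PFKP rose, PFKFB3 and PFKFB4 fell, PFKM did not pass and PFKFB2 was not tested. PFKL, the liver-type subunit, which is also the main one of many leukocytes, had 165, 165 and 171 CPM with melittin, against 99.9, 100.1 and 106 CPM in controls. All 3 melittin libraries were above the highest control, a log2 fold change of 0.71 (SE 0.0339, edgeR adjusted p = 8.75e-17, and 0.000399 against 1.5-fold). PFKP, the platelet-type subunit, rose less, to 137 ± 1.44 CPM with melittin against 112 ± 3.72 CPM in controls, and its call ended with library totals alone (log2 fold change 0.06, edgeR adjusted p = 0.124). PFKM, the muscle-type subunit, had 16 to 31 counts per melittin library and 23 to 28 per control. PFKL thus made up 51.2 ± 0.62% of phosphofructokinase FPKM with melittin and 43.9 ± 0.94% in controls, with PFKP the larger share in each control library and PFKL in each melittin library.

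The PFKFB enzymes make and break fructose 2,6-bisphosphate, the strongest activator of phosphofructokinase, and the isozyme PFKFB3 is known for kinase activity far above its phosphatase activity. PFKFB3 (chromosome 10, 6144934 to 6254644, plus strand, GRCh38) had 91.5, 88.6 and 83.9 CPM with melittin and 131, 127 and 135 CPM in controls. PFKFB4 had 74.3, 69.8 and 72.9 CPM with melittin and 100.0, 103 and 100.4 CPM in controls. Both fell with no overlap, by 0.57 (SE 0.0384) and 0.49 (SE 0.0397) on the log2 scale, and neither passed against 1.5-fold. PFKFB3 held 54.8 ± 1.23% of the FPKM of these genes with melittin and 56.4 ± 1.07% in controls, with overlapping groups. PFKFB2 had 0 or 1 count in each library and was not tested. PFKFB4 overlaps UCN2 on the same strand, a gene with 2589 counts over the 6 libraries.

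**Figure D4:**
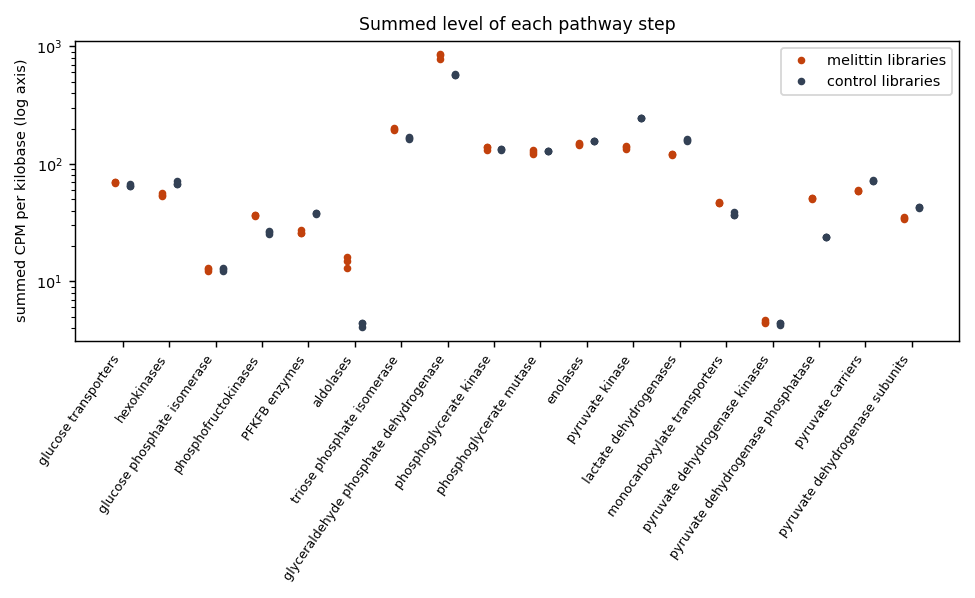
Summed CPM per kilobase of the members of each step (log axis) in each melittin library (orange) and each control library (dark), in pathway order. GAPDH is the highest step in both groups, at 829.6 with melittin and 573 in controls, and pyruvate kinase is visibly lower with melittin.

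From aldolase to pyruvate kinase, 5 of 9 tested members rose and 2 fell, a share called near the 76.4% of all genes, and with library totals alone 3 rose and 4 fell. ALDOC, the aldolase best known from brain, had 33.2, 37.5 and 40.8 CPM with melittin, against 10.6, 11 and 10.2 CPM in controls. This was 3.5-fold higher (log2 fold change 1.81, SE 0.0846, edgeR adjusted p = 6.08e-17), the highest ratio among the members tested. ALDOA, the aldolase that most tissues use, was counted 23, 37 and 25 times in melittin libraries and 29, 15 and 13 times in controls. Such a level is low beside its neighbours in the pathway, and an unnamed gene of the table, ENSG00000285043, lies across nearly the whole of ALDOA on the same strand with 28, 17 and 11 counts with melittin and 24, 18 and 24 in controls. Whether reads common to both were left out of the counts was not tested, so the ALDOA level and the aldolase total are uncertain. ALDOC lies within the span of RSKR on the same strand, which had 36, 28 and 27 counts with melittin and 54, 37 and 34 in controls. ALDOC itself had 511, 674 and 608 counts with melittin and 215, 234 and 176 in controls. Whether reads common to ALDOC and RSKR were left out was not tested either. The ALDOA log2 fold change of 0.86 (edgeR adjusted p = 0.0154) had an adjusted p between 0.0700 and 0.0956 without melittin replicate 2, control replicate 2 or control replicate 3, and of 0.0696 with library totals alone.

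TPI1, which interconverts the triose phosphates, averaged 535 ± 11.5 CPM with melittin and 447 ± 8.74 CPM in controls, a log2 fold change of 0.26 that shrank to 0.03 with library totals alone (edgeR adjusted p = 0.32) and to 0.08 with the trend on gene length removed. GAPDH, the dehydrogenase of the pathway and a common reference gene, had 1875, 2039.8 and 2049 CPM with melittin, against 1369.9, 1364 and 1381 CPM in controls. Each melittin library was above each control, a log2 fold change of 0.54 (SE 0.025, edgeR adjusted p = 5.7e-17). It was 0.30 with library totals alone and 0.32 after removal of the length trend, passed under both, and stayed short of the test against 1.5-fold under TMM. PGK1, the first step that makes ATP, averaged 746 ± 25 CPM with melittin and 729 ± 7.61 CPM in controls, and PGAM1, the mutase, 319 ± 11.1 CPM with melittin and 328 ± 1.47 CPM in controls. Neither passed under TMM (edgeR adjusted p = 0.217 and 0.2). PGK1 passed as higher without melittin replicate 3 (0.06, edgeR adjusted p = 0.0179) and PGAM1 as lower without melittin replicate 1 (−0.07, edgeR adjusted p = 0.0209). PGK1 overlaps ATP7A in part on the same strand, a gene with 2946 counts in all, against 78968 for PGK1.

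Enolases make phosphoenolpyruvate, and the pair in these cells moved apart. ENO2, the isozyme known as neuron-specific enolase (chromosome 12, 6913745 to 6923698, plus strand, GRCh38), had 79.5, 77.4 and 80 CPM with melittin, against 25.9, 25.1 and 25.7 CPM in controls. The groups were far apart for their spread, with a log2 fold change of 1.63 (SE 0.0511, edgeR adjusted p = 6.71e-21). ENO1, the ubiquitous isozyme, had 687, 666 and 677 CPM with melittin and 779, 794 and 786 CPM in controls, a fall by 0.22 on the log2 scale. ENO1 remained the main enolase, with 87.5 ± 0.12% of enolase FPKM with melittin and 96.2 ± 0.10% in controls. Summed per length, the enolases stood at 148 ± 2.24 CPM per kilobase with melittin and 157 ± 1.38 in controls. ENO2 overlaps LRRC23 on the same strand, which had 162, 197 and 179 counts with melittin and 107, 96 and 77 in controls, against 1194 to 1391 and 444 to 532 for ENO2.

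PKM, which encodes the pyruvate kinases PKM1 and PKM2, had the lowest log2 fold change among the 34 members that passed the low-count filter, while with the length trend removed MPC1 was lower (−0.73) than PKM (−0.72). PKM (chromosome 15, 72199029 to 72231819, minus strand, GRCh38) had 1207, 1189 and 1158 CPM with melittin, against 2107, 2101 and 2112 CPM in controls. No melittin library came near the controls, a log2 fold change of −0.83 (SE 0.0202, edgeR adjusted p = 2.13e-23, and 2.71e-12 against 1.5-fold), and gene counts do not divide the PKM1 and PKM2 forms. PKM fell by 921.9 CPM and GAPDH rose by 615.9 CPM, and the summed level of the 37 genes stood at 8695 ± 36.3 CPM with melittin and 9018 ± 58.5 CPM in controls (SD, n = 3). Without scaling the members held 0.802 ± 0.00315% of all counts with melittin and 0.976 ± 0.00535% in controls. Per length, PKM was at rank 3 among the members with melittin and at rank 2 in controls. Within a library the log2 ratio of GAPDH to PKM counts, which no scaling affects, was 0.635, 0.779 and 0.824 with melittin and −0.621, −0.623 and −0.612 in controls. GAPDH thus had more counts than PKM in each melittin library and fewer in each control.

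Of the members on chromosome 12, GAPDH, TPI1, ENO2 and SLC2A3 lie between positions 6534512 and 7936187 (GRCh38), and each rose under TMM. Of 48 genes of the table wholly within that interval, 33 were tested, 16 rose and 8 fell, with a median log2 fold change of 0.39, where 38.1% and 38.3% of all genes rose and fell. The interval was chosen after the values were seen, and these 4 members are among the 16.

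The lactate branch moved in 2 directions. LDHA, the subunit that favours lactate formation, had 737, 739 and 713 CPM with melittin and 945, 973 and 976 CPM in controls. Each melittin library was below each control, and LDHA fell by 0.40 on the log2 scale (SE 0.0231, edgeR adjusted p = 5.84e-15), and did not pass against 1.5-fold. LDHB, the subunit associated with lactate use, had 3, 0 and 2 counts with melittin and 6, 2 and 1 in controls and was not tested, so in these tables LDHA held 99.97 ± 0.03% of the FPKM of the pair in each group. LDHB overlaps an unnamed gene on the same strand that had 1 count in all. Whether reads common to both were left out of the counts was not tested, so the LDHB level and the share of LDHA are uncertain.

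SLC16A3, which encodes MCT4, the transporter known for lactate export from glycolytic cells, had 328, 323 and 331 CPM with melittin, against 211, 210.4 and 201 CPM in controls. SLC16A1, which encodes MCT1, known for carrying lactate in either direction, had 74.1, 71.4 and 68.2 CPM with melittin, against 90.2, 101 and 96.1 CPM in controls. Both had groups that did not overlap, with log2 fold changes of 0.66 (SE 0.0277) and −0.43 (SE 0.045). SLC16A3 took 75.9 ± 0.87% of the FPKM of this pair with melittin and 59.8 ± 1.56% in controls, the largest shift of shares among the families compared. SLC16A3 overlaps CSNK1D on the opposite strand, which had 10474 counts over the 6 libraries against 28004 for SLC16A3, and whether the counting used strand is not given in the sources used here.

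**Figure D5:**
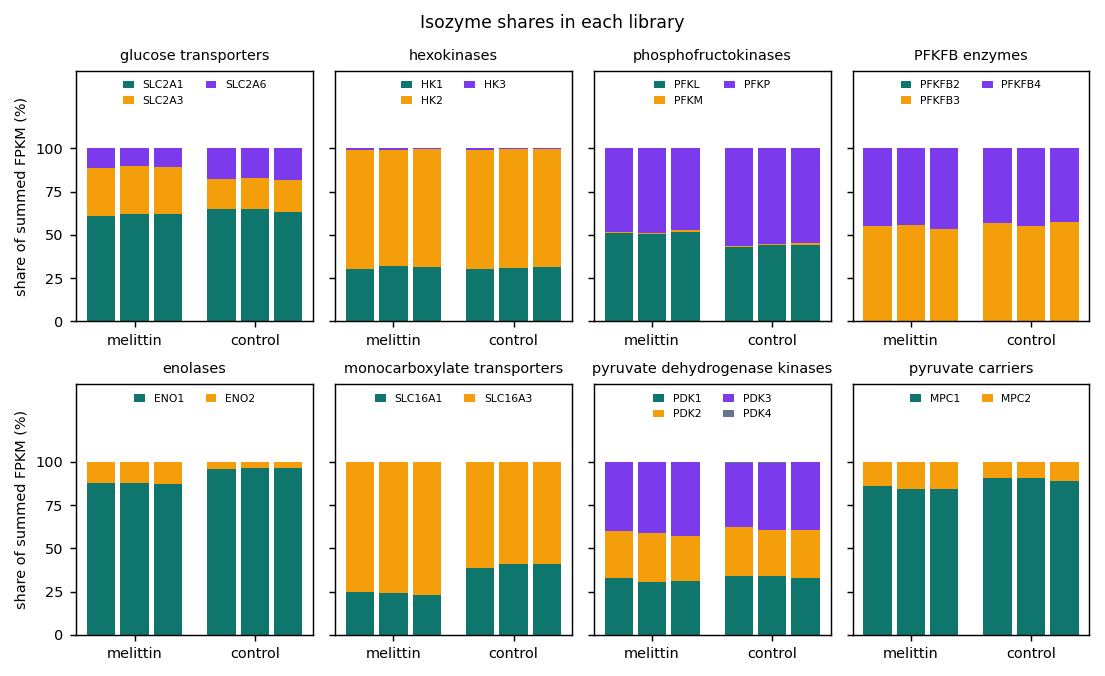
Share of each gene in the summed FPKM of its family (percent, stacked to 100) for the 3 melittin libraries (left bars of each panel) and the 3 control libraries (right bars). The monocarboxylate transporters, glucose transporters, enolases and phosphofructokinases differ between the groups, while the shares of hexokinases and PFKFB enzymes overlap between the groups.

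Pyruvate enters mitochondria through a carrier made of MPC1 and MPC2, and the partners moved apart. MPC1 had 80.3, 77.1 and 76.3 CPM with melittin and 100.1, 103 and 99.3 CPM in controls, a log2 fold change of −0.37 (SE 0.0389). MPC2 averaged 23.6 ± 1.28 CPM with melittin and 18.8 ± 1.86 CPM in controls, a rise whose call ended with library totals alone (edgeR adjusted p = 0.276) or after removal of the length trend (edgeR adjusted p = 0.11). MPC1 is the shortest member, with 1546 bases in the table, and its log2 fold change was −0.73 with the length trend removed. MPC2 overlaps DCAF6 on the opposite strand, which had 6344 counts over the 6 libraries against 2241 for MPC2.

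Subunits of the pyruvate dehydrogenase complex were lower with melittin or did not pass. DLAT, the E2 subunit that transfers the acetyl group, had 34.4, 32.3 and 32.5 CPM with melittin, against 54.1, 51.1 and 54.3 CPM in controls. No values overlapped, and the log2 fold change of −0.68 (SE 0.0554) was past 1.5-fold (edgeR adjusted p = 0.0405). DLD, the E3 subunit that this complex shares with others, had 81.4, 78.3 and 72.3 CPM with melittin and 98.1, 92.1 and 99.8 CPM in controls, a fall by 0.32 on the log2 scale. PDHA1, the E1 subunit that the kinases phosphorylate, averaged 52.2 ± 2.46 CPM with melittin and 57.1 ± 0.894 CPM in controls (log2 fold change −0.13, edgeR adjusted p = 0.0197). That call was lost with DESeq2 (adjusted p = 0.0607) and without melittin replicate 1 (edgeR adjusted p = 0.105) or control replicate 1 (edgeR adjusted p = 0.0566). PDHB, its partner in E1, had a log2 fold change of −0.15 (edgeR adjusted p = 0.0894), and it passed without control replicate 3 (−0.21, edgeR adjusted p = 0.0205).

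Of the regulators of the complex, the phosphatase PDP1 rose, and among the tested kinases only PDK3 passed. PDP1, the catalytic subunit of a phosphatase that reactivates pyruvate dehydrogenase, had 287, 289 and 280.1 CPM with melittin, against 134, 134 and 133 CPM in controls. The groups were separated by far more than their spread, at 2.13-fold (log2 fold change 1.09, SE 0.0286, edgeR adjusted p = 1.1e-22). Among the kinases, PDK1 averaged 21.3 ± 1.26 CPM with melittin and 21.7 ± 0.953 CPM in controls, and PDK2 6.72 ± 0.31 and 6.55 ± 0.294 CPM. PDK3 rose by 0.18 on the log2 scale (edgeR adjusted p = 0.0101), and its sign turned with library totals alone (−0.05, edgeR adjusted p = 0.46). PDK4 had 0 counts in every melittin library and 2, 3 and 1 in controls, which is at or under the floor of 3 counts per library, so a difference was not detectable at this depth. Per length the 4 kinases summed to 4.55 ± 0.10 CPM per kilobase with melittin and 4.35 ± 0.12 in controls, against 50.9 ± 0.81 and 23.9 ± 0.08 for PDP1.

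Ratios of counts within a library do not depend on the scaling, and 8 were compared, chosen after the values were seen. The trend of the fold change on gene length was not removed from them. Melittin and control libraries did not overlap in any of them, which the choice of pairs favoured, so this adds no separate evidence. Each ratio gave p = 0.1 in a two-sided exact permutation test (adjusted p = 0.1), the smallest that 3 against 3 libraries allow. The log2 ratio of ENO2 to ENO1 was −3.10 ± 0.016 with melittin and −4.94 ± 0.038 in controls (SD, n = 3). SLC16A3 over SLC16A1 stood at 2.20 ± 0.069 with melittin and 1.12 ± 0.094 in controls, and PFKL over PFKFB3 at 0.93 ± 0.089 and −0.36 ± 0.029. PDP1 over DLAT was 3.11 ± 0.049 with melittin and 1.33 ± 0.051 in controls, a difference of 1.78, and SLC2A3 over SLC2A1 differed by 0.65. LDHA over GAPDH was −1.44 ± 0.09 with melittin and −0.51 ± 0.025 in controls, a difference of −0.94 where the TMM-scaled log2 fold change of LDHA was −0.40.

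Other genes of glucose handling were taken from a list of 42 genes, of which 21 were tested, 9 rose and 6 fell. These 71.4% called are near the 76.4% of all genes. With library totals alone 5 rose and 10 fell, where 26.3% and 51.9% of all genes did. The most marked riser was TXNIP, an arrestin-like protein known to restrain glucose uptake, with 1812, 1817 and 1797 CPM with melittin, against 387, 384 and 375 CPM in controls. Its relative ARRDC4, known as a further brake on glucose uptake, had 46.2, 48.1 and 45.7 CPM with melittin and 25.9, 25.1 and 25.7 CPM in controls. These rises were 4.73-fold (SE 0.0222 on the log2 scale, edgeR adjusted p = 2.21e-32) and 1.83-fold, and neither gene had overlapping groups. PC, pyruvate carboxylase, which turns pyruvate into oxaloacetate, had 77.8, 76.8 and 74.4 CPM with melittin, against 34.9, 33.1 and 30.1 CPM in controls (log2 fold change 1.22, SE 0.0535). Pyruvate carboxylase thus rose while DLAT and DLD of the competing dehydrogenase complex fell.

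Among those that fell, EMB, which encodes embigin, a partner protein of monocarboxylate transporters, had 29.3, 29.2 and 27.6 CPM with melittin, against 70.5, 69.5 and 66.9 CPM in controls. SLC16A7, which encodes MCT2, averaged 54.1 ± 0.909 CPM with melittin and 96.3 ± 4.61 CPM in controls (log2 fold change −0.83, SE 0.0449), and SLC2A13, a proton myo-inositol transporter of the GLUT family, fell by 0.46. SLC16A7 and SLC16A1 were thus both lower and SLC16A3 higher. BSG, basigin, the partner protein of MCT1 and MCT4, and PDP2, the other phosphatase of the complex, were chosen after their values were seen. BSG averaged 428 ± 14.1 CPM with melittin and 371 ± 5.95 CPM in controls, a rise that was not called with library totals alone (log2 fold change −0.02, edgeR adjusted p = 0.415). PDP2 averaged 75.7 ± 2.56 CPM with melittin and 51.7 ± 0.161 CPM in controls.

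The pentose phosphate pathway branches off after hexokinase and makes NADPH and ribose. Of its 11 genes, all tested, 6 rose and 3 fell, or 81.8% called beside 76.4% of all genes, of which 38.1% rose and 38.3% fell. TKT, transketolase, had 289, 284 and 278 CPM with melittin, against 119.7, 121 and 119.8 CPM in controls. PGD, a dehydrogenase that makes NADPH, averaged 349.7 ± 8.11 CPM with melittin and 179.9 ± 2.02 CPM in controls. Both genes were past 1.5-fold, with log2 fold changes of 1.24 and 0.96. PRPS1 and PRPS2, which activate ribose for nucleotide synthesis, and RPIA, the ribose isomerase, had log2 fold changes of −0.75, −0.27 and −0.50 and were called lower.

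Of 20 genes of the citric acid cycle, all tested, 11 rose and 6 fell, where 76.4% of all genes were called. None passed against 1.5-fold, where 29.1% of all genes did. With library totals alone 4 rose and 9 fell, where 26.3% and 51.9% of all genes did. Of those that fell 2 passed against 1.5-fold, where 23% of all genes were lower past 1.5-fold. The malate dehydrogenases MDH2 and MDH1 and the succinate-CoA ligase subunit SUCLG2 rose, by 0.29, 0.25 and 0.58 on the log2 scale. OGDH and IDH3A, of the oxoglutarate and isocitrate dehydrogenases, had log2 fold changes of −0.43 and −0.68 and were called lower. With library totals alone MDH2 and MDH1 were near 0, at 0.06 and 0.02.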

How the data were processed

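The authors deposited raw read counts per gene and library, with gene names, lengths and coordinates, and FPKM values, per the file headers. Their FPKM equalled the count divided by gene length and library total within 2.2e-09 (values of at least 20 counts), and a second deposited table repeats them. The build was GRCh38, per the submitters' processing notes. Per the labels' protocols, RNA came from a chloroform extraction and libraries from a NEBNext Ultra II kit. The aligner, counter and strand setting: not given in the sources used here.

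Counts of all genes were fitted with edgeR 4.0.16 in R 4.3.3 (filterByExpr, TMM, glmQLFit, glmQLFTest, glmTreat at 1.5-fold), with Benjamini-Hochberg adjustment over 12029 genes. An SE is the log2 fold change without its sign over the square root of F. CPM per kilobase divides TMM-scaled CPM by the deposited length. Steps were tested on simulated counts with 200 genes changed. The test recovered 83.6% of the changes of 1.5-fold and 94.0% of those of 2-fold, with 4.17% false calls. With so few genes changed, where 76.4% were called in the data, it does not bear on the choice of scaling. Replicate pairs differed by more than sampling noise (chi-square per degree of freedom 1.73 to 3.92), and each library was counted once. That excess cannot tell separate cultures from separate preparations of the same culture. Reads common to pseudogenes or overlapping genes cannot be assigned with certainty. Overlap on the same strand touches 7 members and on the opposite strand 11. Alternatives were median-of-ratios size factors, library totals alone, DESeq2 1.42.0, limma-voom (limma 3.58.1), other low-count filters, removal of the length trend, a replicate block and leaving out each library. All 37 members are accounted for, up to 3 called genes in each direction were named per other list, and exceptions are marked. Some genes that this rule names are not reported here. Members and lists were chosen with earlier results of these data known.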

Additional observations from a re-analysis of the deposited data

How the results depend on the processing

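With library totals alone, 7 members rose (12 under TMM), the median log2 fold change of the members was −0.22 (0.01 under TMM), the other glycolysis genes had 5 higher and 10 lower, the citric acid cycle 4 higher, and the log2 fold change of PDK3 turned to −0.050. The member median was 0.062 with the length trend removed and −0.045 to 0.0025 with a library left out. Leaving out a library left 11 to 13 members higher, 12 to 14 lower and 6 to 8 past 1.5-fold. Deviations of same-numbered libraries had correlations of −0.03 to 0.01 over 7875 genes, against −0.02 to 0.05 for differently numbered ones. No pairing by number was seen, though this check cannot exclude a weak one. With a replicate block 12 members rose and 13 fell, as without it, and no member's call at that threshold changed. At an adjusted p of 0.05, median-of-ratios factors, limma-voom and both other filters on low counts changed no member's call, and DESeq2 ended that of PDHA1. With no low-count filter SLC2A3 lost its call past 1.5-fold. The members called the same way without each library in turn were 11 of the 12 higher and 12 of the 13 lower. ALDOA, LDHB, HK3, PFKM, PFKFB2 and PDK4 had 4 to 155 counts over the 6 libraries, which limits what their comparison can show. For ALDOA, ALDOC and LDHB, whether reads common to an overlapping gene were left out of the counts was not tested.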
